A study of Mus musculus with 12 samples.

Results

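Cathepsins are the main proteases of the lysosome, and 10 of their genes were followed in mouse cardiac ventricle: Ctsa, Ctsb, Ctsc, Ctsd, Ctsf, Ctsh, Ctsk, Ctsl, Ctss and Ctsz. The members were all probes that the platform annotation assigns to these symbols. They comprised 15 probes for 10 of the 17837 named genes measured, and all 15 probes passed the filter on empty cells. Transcripts of ventricle muscle were compared between 6 KO mice (AMPK alpha2 -/-), which lack the alpha2 catalytic subunit of the energy sensor AMP-activated protein kinase, and 6 WT mice (AMPK alpha2 +/+). Both genotypes were on the C57B6 strain and aged 7 months. Sex, litters and the deleted part of the gene are not stated in the labels. Each animal had 1 array with 2 colours, on which its heart RNA was set against a universal mouse reference RNA made from 11 cell lines. Heart RNA carried Cy3 in replicates 1 to 3 and Cy5 in replicates 4 to 6 of both genotypes.

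Cathepsins reach the lysosome as inactive precursors and are activated there at acidic pH. Most are cysteine proteases of the papain family. Ctsb, Ctsf, Ctsk, Ctsl and Ctss encode enzymes that cut within a protein chain, whereas Ctsc, Ctsh and Ctsz encode enzymes that act mainly at chain ends. Ctsd encodes an aspartic protease and Ctsa a serine carboxypeptidase that also protects lysosomal glycosidases. In heart muscle they complete the breakdown of material that autophagy delivers, and mice without cathepsin L develop dilated cardiomyopathy.

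Values are log2 ratios of heart RNA over reference RNA, so that 0 means equal signal in both. The base of the logarithm is not stated with the values, and every fold given here would lie farther from 1 with natural logarithms. A ratio does not rank genes by abundance, and a ratio near 0 can also come from a probe that is dim in both RNAs. The 12 cardiomyocyte markers measured were all above the reference (limma adjusted p under 0.05), with a median log2 ratio of 5.56. Empty cells made up 0.306% to 41.7% of probes per array, with the most in KO replicate 4 and WT replicate 3. KO replicate 6 carried transcripts of lung and liver (Sftpc 6.13, Alb 5.90), and Myl7, an atrial light chain gene, reached 7.09 in KO replicate 1 and 7.19 in WT replicate 2. Lower amounts of such transcripts were present elsewhere: Myl7 was 4.10 in KO replicate 5, Myl4, another atrial light chain gene, was 3.67 in WT replicate 6, and Sftpc was 2.19 in WT replicate 3. The adipocyte gene Adipoq was 3.93 in WT replicate 2 and at most 0.826 in any other animal. Prkaa2, the targeted gene, had a mean log2 ratio of 3.89 ± 0.26 in KO (SD, n = 5) and 4.10 ± 0.09 in WT (SD, n = 6). Where its probe lies relative to the deletion is not known here, so this value is no check of the labels. In bulk tissue, fewer cells of a type and less RNA per cell cannot be told apart.

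The cathepsins spanned a wide range of ratios, from Ctsh far above the reference to Ctsz far below it. The level of each gene was tested against 0 in limma, as the mean over both genotypes and both dye orientations. Of the 10 members, 6 were above the reference at an adjusted p under 0.05 and 4 below. Over all 25821 features, 24.8% were called above and 26.6% below. With 1 probe per gene, the one with the most values, 9 members were called, because that probe of Ctsa was at -0.010 (limma adjusted p = 0.907). The reference was a single RNA pool, so the test covers the spread of animals and arrays and not that of the reference.

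Ctsh, which encodes an aminopeptidase, had the highest ratio, with a level of 3.60 (95% interval 3.48 to 3.72) or 12.1-fold above the reference. Ctsf, a less studied papain-type enzyme, followed at 2.47 (2.28 to 2.66). Ctsc, which encodes dipeptidyl peptidase I and activates the granule proteases of leukocytes, stood at 1.56 (1.43 to 1.70). Ctsd, the main aspartic protease of lysosomes, stood at 1.499 (1.39 to 1.61). The intervals of Ctsc and Ctsd overlapped, so their order is not resolved. Every animal with a value was above the reference for these 4 genes.

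Ctsk and Ctsb lay closer to the reference. Ctsk, best known for collagen breakdown by osteoclasts, had a level of 0.52 (0.29 to 0.75). Ctsb, an abundant enzyme of most tissues, had a level of 0.16 (0.05 to 0.27, limma adjusted p = 0.0137). The call for Ctsb differed between the dye orientations, which were held by different animals. Its level was 0.31 on the arrays with heart RNA in Cy3. On those with heart RNA in Cy5 it was 0.010 and did not pass (limma adjusted p = 0.919).

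The remaining 4 genes were below the reference. Ctsa stood at -0.46 (-0.55 to -0.38), and Ctss, an enzyme of antigen-presenting cells, at -1.13 (-1.27 to -0.99). Ctsl stood at -1.85 (-2.03 to -1.67), which is 3.61-fold below the reference cell lines, and Ctsz, a carboxypeptidase, at -2.34 (-2.45 to -2.23). Apart from Ctsc and Ctsd, no 2 neighbours in this order had overlapping intervals. Every animal with a value was below the reference for all 4 genes.

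**Figure D1:**
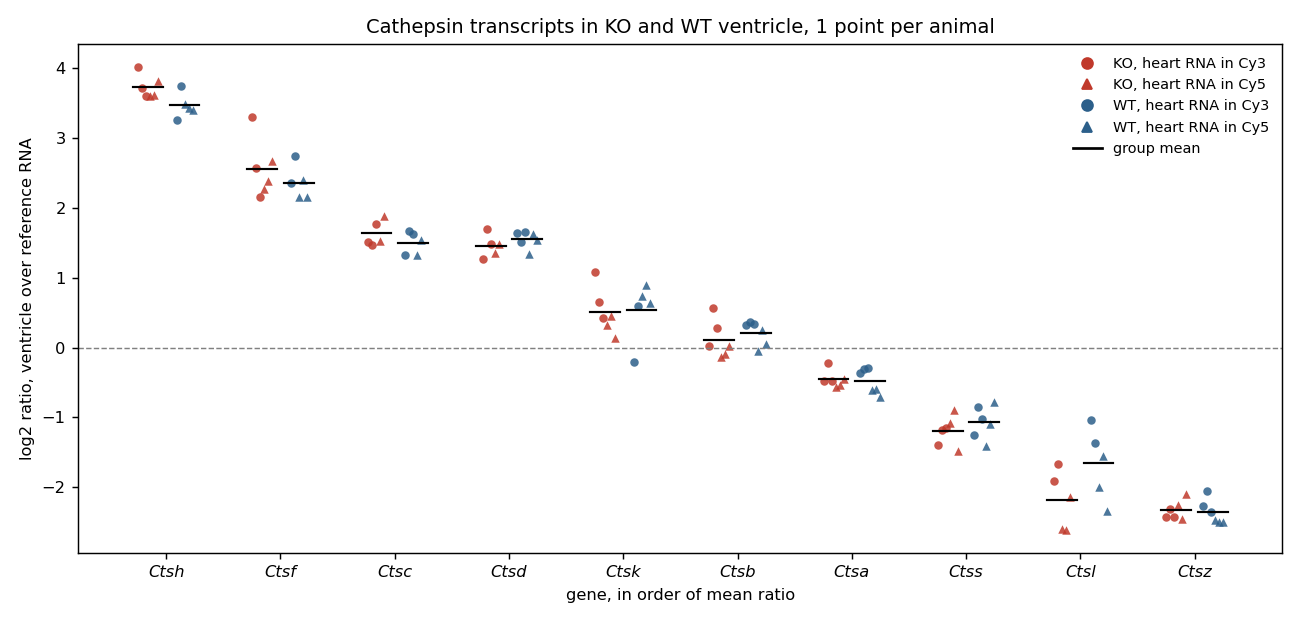
Log2 ratio of ventricle RNA over reference RNA (y axis) for the 10 cathepsin genes (x axis, in order of mean ratio), with KO animals to the left of WT animals for each gene. Each point is 1 animal, circles mark heart RNA in Cy3 and triangles heart RNA in Cy5, and bars are group means. KO and WT points of every gene overlap, and the genes spread from about 12.1-fold above the reference (Ctsh) to below it (Ctsl and Ctsz).

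More than 1 probe read Ctsa, Ctsb, Ctsd and Ctsz, and probes of a gene could differ in level more than the genotypes did. The 3 probes of Ctsa averaged 0.08, -0.51 and -0.93 in KO, against -0.10, -0.55 and -0.83 in WT. The first of them was thus near the reference while the other two were below it. For Ctsd the probes averaged 1.78 and 1.13 in KO, against 1.88 and 1.22 in WT, on either side of the level of Ctsc. Those of Ctsz averaged -2.82 and -1.84 in KO, against -2.87 and -1.84 in WT, and the higher of them lay near the level of Ctsl. For Ctsb the means were 0.13 and 0.010 in KO, against 0.31 and 0.08 in WT, and the second probe did not pass against the reference (level 0.051, limma adjusted p = 0.498). Ctsl, Ctsc, Ctsf, Ctsh, Ctsk and Ctss had 1 probe each, with no second probe to compare.

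**Figure D2:**
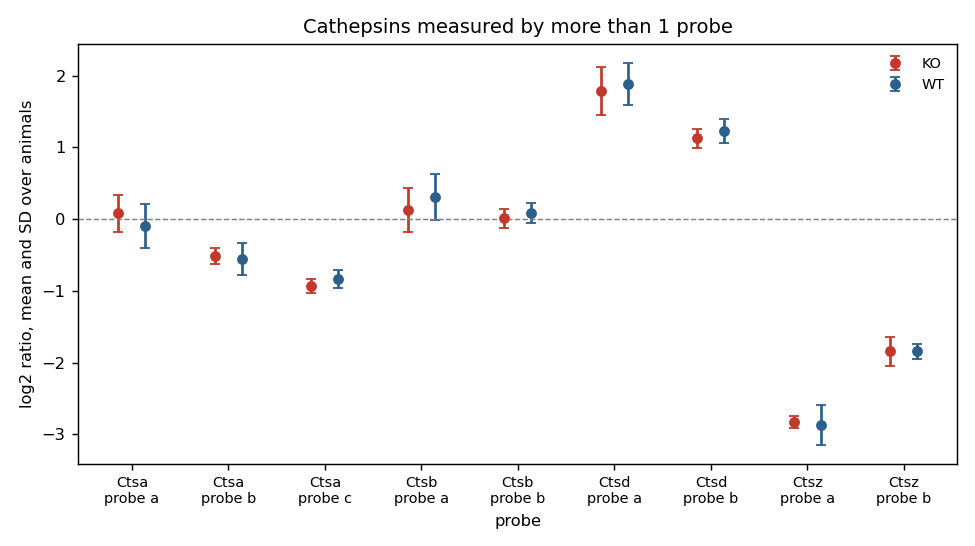
Mean log2 ratio over reference RNA (y axis) of each probe of Ctsa, Ctsb, Ctsd and Ctsz (x axis), with KO left of WT and bars of 1 SD over 5 or 6 animals. The distance between probes of a gene, such as -2.82 and -1.84 for Ctsz in KO, exceeds the distance between genotypes for Ctsa, Ctsd and Ctsz, but not throughout for Ctsb.

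The promoters of several members share a sequence feature. TFEB and TFE3, master regulators of lysosomal genes, bind motifs built around CACGTG, and AMPK signalling is known to act on both factors. The members were chosen as lysosomal genes, so an excess of these motifs among them is no independent result. RefSeq promoter sequences (GRCm38.p6) were given for 8 members, that is all but Ctsb and Ctsh, and the 250 bases before each annotated start were searched on both strands. Among the motifs searched, GGGCGG was found for 5 of these 8 genes (35.4% of all genes) and TATAAA for 1 (14.3%). CACGTG, which reads the same on both strands, was found for 4 of these 8 genes, against 6.86% of 27025 genes in the table. The longer form TCACGTGA, which contains it, was found for Ctsa and Ctsd, against 0.907% of genes. The CLEAR consensus, a still longer form that contains both, was found for 0 of these 8 genes, against 0.27% of genes. The stretches around each match, with CACGTG in capitals and 5′ to 3′ on the gene's strand, are shown because Ctsl is the gene set against the others. The base on either side of the motif is c in both Ctsl and Ctsf.
Ctsl (chr13:64370731-64370770, minus strand): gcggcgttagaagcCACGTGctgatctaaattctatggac
Ctsd, far match (chr7:142388047-142388077, minus strand): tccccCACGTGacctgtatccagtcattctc
Ctsd, near match (chr7:142387900-142387945, minus strand): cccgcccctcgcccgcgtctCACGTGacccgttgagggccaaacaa
Ctsa (chr2:164833741-164833772, plus strand): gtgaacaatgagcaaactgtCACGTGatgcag
Ctsf (chr19:4855066-4855111, plus strand): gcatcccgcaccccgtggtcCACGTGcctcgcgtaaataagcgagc
Counted from the annotated start, the match begins at position -236 in Ctsl, at -245 and -98 in Ctsd, at -12 in Ctsa and at -79 in Ctsf. A match is a string of letters and no evidence of binding in heart.

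The comparison of genotypes asked whether loss of AMPK alpha2 goes with another level of these proteases. No cathepsin passed in limma over all 25821 features (adjusted p = 0.842 to 0.995). The background was as sparse: 0.00387% of features were called in either direction, which is 1 feature, the gene Hyi. At an unadjusted p under 0.05 stood 2 members, Ctsl on the lower side and Ctsh on the higher. Of all features 5.33% did so, 2.84% on the lower side and 2.49% on the higher. Estimates were positive for 5 members and negative for 5. Their median was 0.0013 in log2 units, and that of all features was -0.0009. KO and WT animals overlapped for each of the 10 members. Among features with at least 5 values per genotype, 0.407% did not overlap.

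**Figure D3:**
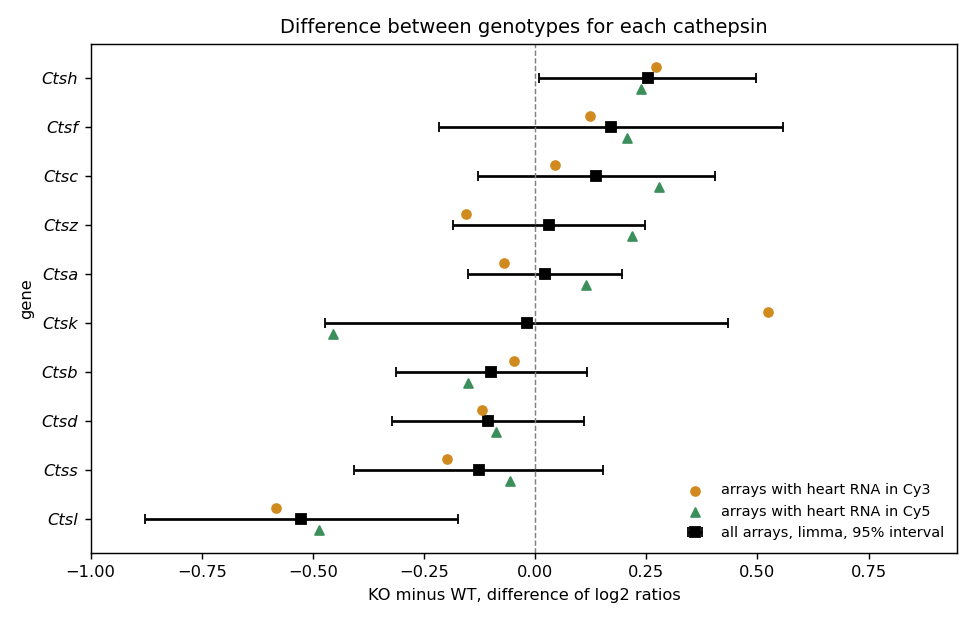
KO minus WT difference of log2 ratios (x axis) for each cathepsin (y axis). Squares are limma estimates over all arrays with 95% intervals, circles the difference on arrays with heart RNA in Cy3 and triangles that on arrays with heart RNA in Cy5. Ctsl is at -0.53, and the other genes lie between -0.13 and 0.25.

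Ctsl, whose product is a major endopeptidase of lysosomes, showed the largest difference of the 10 genes. In KO hearts its log2 ratios were -1.91 in replicate 1, -1.67 in replicate 3, -2.60 in replicate 4, -2.605 in replicate 5 and -2.14 in replicate 6. In WT hearts they were -1.04 in replicate 1, -1.37 in replicate 2, -1.999 in replicate 4, -1.55 in replicate 5 and -2.34 in replicate 6. KO replicate 2 and WT replicate 3 had no value, and the fit used the other 10 animals. The highest ratios belonged to WT replicates 1 and 2 and the lowest to KO replicates 4 and 5, while WT replicate 6 lay below 3 of the 5 KO animals.

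The mean of Ctsl was -2.18 ± 0.42 in KO and -1.66 ± 0.51 in WT (SD, n = 5 each). The limma difference was -0.53 ± 0.16 (SE), with a 95% interval of -0.88 to -0.17, which is 0.695-fold of WT. The difference did not pass over all features (limma adjusted p = 0.842), and it ranked 217th by p among the 25821 features. An exact permutation of genotype within dye orientation gave p = 0.0333 (two-sided, 120 arrangements, smallest possible 0.0167). That test is unadjusted, and Ctsl was already known to differ in these data when it was singled out, so the value is not independent evidence.

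Ctsl also differed between the dye orientations. They were held by different animals, so dye and animals cannot be told apart. Ratios on arrays with heart RNA in Cy5 were lower than those in Cy3 by a difference of -0.71 ± 0.16 (SE, limma adjusted p = 0.0309). With probes joined per gene, Ctsl was the 1 cathepsin called for dye orientation, and 5.71% of all features were called. Fitted on its own, 1 probe of Ctsb was also called (-0.45, limma adjusted p = 0.0399). Its second probe was not (-0.048, limma adjusted p = 0.838). Each orientation held as many measured KO as WT animals. Within orientations, KO minus WT was -0.58 with heart RNA in Cy3 (2 KO and 2 WT animals, which did not overlap) and -0.49 in Cy5 (3 KO and 3 WT animals, which did). A lack of overlap of 2 against 2 animals says little, and its share over all features was not counted. Without KO replicates 1 and 6 and WT replicate 2 the difference was -0.64 ± 0.18 (SE, limma adjusted p = 0.994). That fit rested on KO replicates 3, 4 and 5 and WT replicates 1, 4, 5 and 6. In Cy3 it held only KO replicate 3 and WT replicate 1. KO replicate 5 and WT replicate 6, which hold the lowest KO and the lowest WT ratio of Ctsl and also had atrial transcripts, stayed in that fit. The difference was -0.488 without KO replicate 5 and -0.633 without WT replicate 6.

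Ctsl was then set against the other cathepsins of the same animal. The mean of the other 9 members per animal was 0.66 ± 0.09 in KO and 0.65 ± 0.13 in WT (SD, n = 6 each), a difference of 0.018 with dye orientation as a term. Ctsl minus that mean was -2.83 ± 0.37 in KO and -2.28 ± 0.49 in WT (SD, n = 5 each), a difference of -0.55. By animal it was -2.68, -2.29, -3.16, -3.20 and -2.81 in KO replicates 1, 3, 4, 5 and 6. In WT replicates 1, 2, 4, 5 and 6 it was -1.57, -2.19, -2.50, -2.21 and -2.93. The groups overlapped, because WT replicate 6 lay below 3 KO animals and WT replicate 4 below 1. This contrast was not tested, because its members were chosen with results of these data known, and it is a description.

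**Figure D4:**
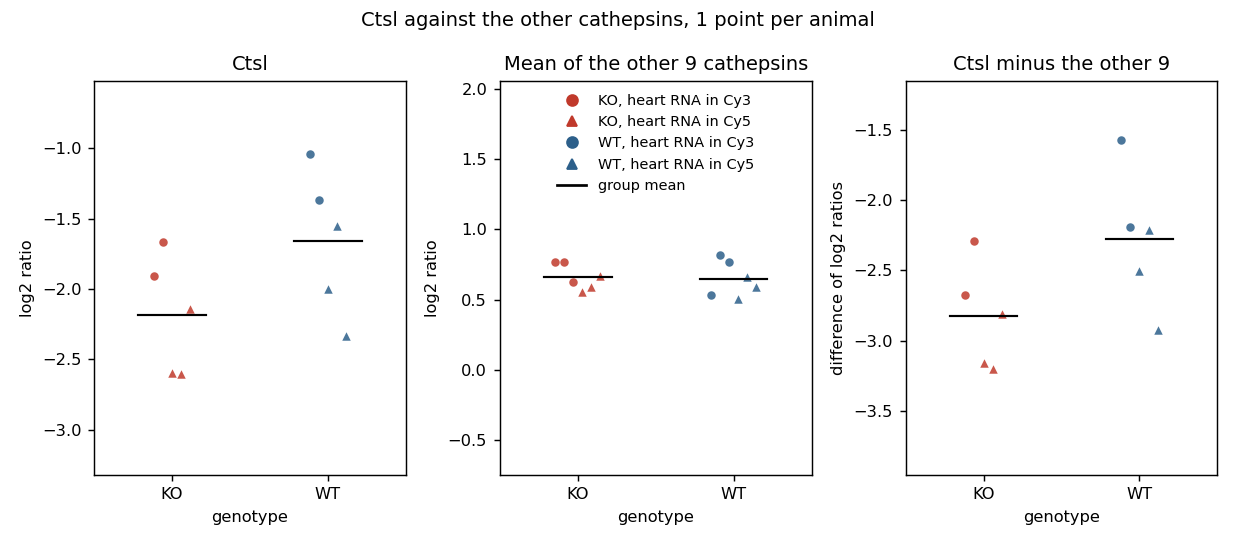
Ctsl (left), the mean of the other 9 cathepsins (middle) and their difference (right), in log2 ratio over reference RNA (y axes), with KO left of WT. Points are animals, circles for heart RNA in Cy3 and triangles for Cy5, and bars are group means. The middle panel shows KO and WT at 0.66 and 0.65, and the right panel a difference of -0.55 with overlapping points.

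Ctsh was on the other side. Its log2 ratio ran from 3.60 to 4.01 in KO, with a median of 3.66 (n = 6), and was 3.26, 3.74, 3.49, 3.43 and 3.40 in WT replicates 1, 2, 4, 5 and 6. KO replicate 1 was the highest animal and WT replicate 1 the lowest, and WT replicate 2 lay among the KO animals. The difference was 0.25 ± 0.11 (SE, limma adjusted p = 0.930), and it was 0.27 in Cy3 and 0.24 in Cy5. It was 0.168 without WT replicate 1. Ctsc, the other aminopeptidase-type enzyme, had 1.515, 1.465, 1.76, 1.52 and 1.89 in KO replicates 1, 2, 3, 5 and 6, against 1.32, 1.66, 1.63, 1.32 and 1.53 in WT replicates 1 to 5. It differed by 0.14 ± 0.12 (SE). Ctsz differed by 0.031 ± 0.10, with KO ratios of -2.46 to -2.10 (median -2.36) and WT ratios of -2.50 to -2.06 (median -2.41).

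The estimates of the other papain-type endopeptidases were smaller than that of Ctsl. Ctsb had ratios of -0.14 to 0.57 in KO (median 0.026) and of -0.05 to 0.36 in WT (median 0.29), a difference of -0.10 ± 0.10 (SE). Ctss ran from -1.48 to -0.90 in KO (median -1.16) and from -1.404 to -0.78 in WT (median -1.06), a difference of -0.13 ± 0.13. It was 0.045 without KO replicates 1 and 6 and WT replicate 2. Ctsf differed by 0.17 ± 0.18, and its highest value was 3.29 in KO replicate 1, while the other KO animals reached at most 2.68 and WT animals 2.74. Without KO replicate 1 the difference of Ctsf was 0.049. KO and WT ranges overlapped for each of these genes.

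Ctsk had differences of opposite sign on the dye orientations. In KO it was 1.08, 0.65 and 0.43 in replicates 1 to 3 (Cy3) and 0.32, 0.46 and 0.14 in replicates 4 to 6 (Cy5). In WT it was -0.205 and 0.59 in replicates 1 and 2 (Cy3) and 0.74, 0.90 and 0.64 in replicates 4 to 6 (Cy5). The groups overlapped in Cy3 and did not in Cy5. With 3 KO and 3 WT animals in Cy5 this says little, and the share of all features that separated so was not counted. KO minus WT was 0.52 in Cy3 and -0.45 in Cy5, and -0.019 ± 0.21 (SE) over all arrays. The interaction of genotype and dye did not pass over all features (difference of -0.98, limma adjusted p = 0.935), as for the other 9 members. Ctsk and Ctss are neighbours on chromosome 3 with 1 annotated gene between them, the lncRNA gene Gm40096. In Cy5, where Ctsk was -0.45, Ctss differed by -0.056, and in Cy3, where Ctsk was 0.52, Ctss differed by -0.198.

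Ctsd and Ctsa are no cysteine proteases, and their estimates lay within the range of the cysteine protease members (-0.53 to 0.25). Ctsd had 1.27, 1.70, 1.48, 1.35 and 1.48 in KO replicates 1, 2, 3, 5 and 6, against 1.34 to 1.65 (median 1.58) in WT, a difference of -0.11 ± 0.10 (SE). Ctsa had -0.57 to -0.23 in KO (median -0.47) and -0.70 to -0.29 in WT (median -0.47), a difference of 0.022 ± 0.080. Its 3 probes differed in sign (0.18, 0.016 and -0.09), the 1 gene of the 4 with several probes for which this was so. The 95% intervals of the 9 cathepsins other than Ctsl ran from -0.47 at the lowest bound to 0.56 at the highest. Differences of that size were therefore not excluded for the least precise of them, Ctsk and Ctsf.

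Genes that work with the cathepsins were read from 7 lists of inhibitors, sorting factors, hydrolases, membrane proteins, proton pump subunits, regulators and other cathepsins. Of 122 genes listed, 111 were measured, with 52 above and 59 below the WT level. None passed in limma over all features, and 12 (10.8%) had an unadjusted p under 0.05, against 5.33% of all features. List medians lay between -0.048 for V-ATPase subunits and 0.112 for cathepsin inhibitors.

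Among inhibitors, Cst6, which encodes cystatin E/M, an inhibitor of cathepsin L and related enzymes, had the smallest p of all list genes. It was -0.10, 0.041, -0.035, 0.18 and 0.020 in KO replicates 1, 2, 3, 5 and 6. In WT it ran from 0.154 to 0.79 with a median of 0.50 (n = 6). The groups overlapped only in KO replicate 5 and WT replicate 3. The difference was -0.44 ± 0.09 (SE, limma adjusted p = 0.419), so Cst6 did not pass. Kng1, a kininogen gene of liver with cystatin domains, was 4.73 in KO replicate 6 and at most 0.24 in every other animal, and that array also had Alb at 5.90. Serpinb9, a serpin gene, differed by 0.14 ± 0.09. Of the 13 inhibitors measured 9 were above the WT level, and 7 without KO replicate 6, with a median of 0.036.

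The other hydrolases and the membrane proteins were split. Of 29 other hydrolases 15 were above and 14 below the WT level (median 0.0005). Aga, which cleaves asparagine-linked sugars, differed by -0.25 ± 0.08 (SE), Smpd1, the acid sphingomyelinase gene, by -0.32 ± 0.12, and Ppt1, a thioesterase gene, by 0.25 ± 0.08. Of 18 membrane proteins 6 were above and 12 below (median -0.038). Ostm1, a partner of the lysosomal chloride transporter, was 0.269 to 0.503 in KO (median 0.39, n = 6) and 0.55, 0.57, 0.77, 0.76 and 0.64 in WT replicates 1, 2, 4, 5 and 6. Its groups did not overlap, which held for 0.407% of features with enough values. Its difference of -0.26 ± 0.08 (SE) did not pass (limma adjusted p = 0.870). Cd63 differed by -0.25 ± 0.11 and Ctns, the cystine transporter gene, by -0.15 ± 0.11.

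V-ATPase subunits, which acidify the lysosome, were below the WT level for 9 of 14 genes, with Atp6v1d at -0.18 ± 0.08 (SE), Atp6v1g1 at -0.20 ± 0.11 and Atp6v0d1 at -0.14 ± 0.08. Sorting factors were below for 8 of 12 genes (median -0.033), among them Furin (-0.14 ± 0.08) and Gnptg (-0.13 ± 0.10), while Nagpa differed by 0.10 ± 0.09. Without KO replicates 1 and 6 and WT replicate 2 this turned round, with 7 above and 5 below and a median of 0.012. Among 14 regulators 9 were above and 5 below. Tfeb, the master regulator gene, was 0.75, 0.54, -0.043, 0.46, 0.24 and 0.65 in KO replicates 1 to 6, against 0.049, -0.039, 0.017, -0.034 and 0.32 in WT replicates 1, 2, 4, 5 and 6. KO replicate 3 lay at the WT level and the groups overlapped. Its difference was 0.38 ± 0.14 (SE, limma adjusted p = 0.901). Rragd, a GTPase gene that couples amino acids to mTOR, differed by -0.29 ± 0.11, and Mtor by -0.24 ± 0.10.

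Other cathepsin genes mostly had ratios near 0. Of 11 measured, among them the placental genes Ctsj, Ctsm, Ctsq and Ctsr, 2 were called above the reference and 2 below (24.8% and 26.6% of all features), and 4 were above and 7 below the WT level. Ctse differed by -0.19 ± 0.11 (SE), Ctsj by -0.25 ± 0.19 and Ctsw, a gene of cytotoxic lymphocytes, by -0.51 ± 0.44. The value of Ctsw rested on WT replicate 2, where it was 2.75, against at most 0.072 in any other animal.

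**Figure D5:**
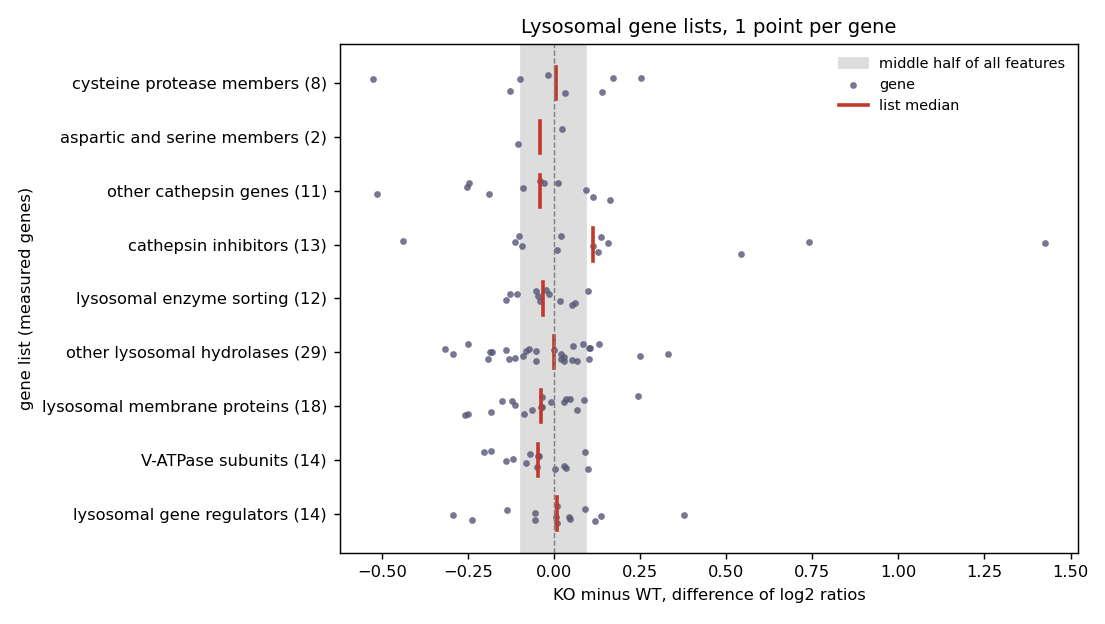
KO minus WT difference of log2 ratios (x axis) for each gene of the 9 lysosomal lists (y axis, measured genes in brackets), with the list median as a red line and the range from lower to upper quartile of all features in grey. Most genes lie near 0. Ctsl is the leftmost point of the cysteine protease list at -0.53, and Kng1 at 1.43 is the rightmost of the inhibitors.

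Cathepsins are abundant in macrophages, and markers of several cell types were read beside them. Of 14 macrophage and monocyte markers 10 were above and 4 below the WT level (median 0.027), and 0 passed. Their mean per array, like those of the other marker lists, came from an additive fit of gene and array. It ran from 0.99 to 1.48 in KO and from 0.88 to 1.44 in WT. C1qb differed by 0.19 ± 0.15 (SE), Itgam by 0.14 ± 0.18 and Cd163 by -0.23 ± 0.29. Of 11 fibroblast markers 8 were below the WT level (median -0.12), with a mean per array of 0.53 to 1.02 in KO and 0.69 to 1.29 in WT. That median was 0.030 without KO replicates 1 and 6 and WT replicate 2. Col3a1 differed by -0.20 ± 0.10, Col1a1 by -0.15 ± 0.10 and Dpt by 0.18 ± 0.16. Of 7 markers of cycling cells 6 were below (median -0.19), with Aurkb at -0.60 ± 0.17 (limma adjusted p = 0.787), Rrm2 at -0.32 ± 0.15 and Birc5 at -0.23 ± 0.15, and their mean per array ran from -3.55 to -2.93 in KO and from -3.36 to -2.66 in WT. Osteoclast markers, a cell type rich in Ctsk, lay near the reference (5 genes, median level 0.025), and Dcstamp differed by -0.25 ± 0.13, Acp5 by -0.34 ± 0.19 and Ocstamp by -0.19 ± 0.12. The part of these cell types in the values of Ctsl was not tested.

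Endothelial markers held the most genes with an unadjusted p under 0.05 among the marker lists, 3 of 9 (5.33% of all features). Of the 9, 7 were above the WT level (median 0.13), and 8 without KO replicates 1 and 6 and WT replicate 2. Esam, Cdh5 and Tek, genes of endothelial junctions and of the angiopoietin receptor, differed by 0.34 ± 0.12, 0.37 ± 0.14 and 0.29 ± 0.11 (SE), and none passed (limma adjusted p = 0.899 to 0.911). Their mean per array ran from 2.30 to 2.90 in KO and from 2.25 to 2.61 in WT. Of 8 lymphocyte markers 7 were below (median -0.06), with Ms4a1 at -0.15 ± 0.12, Ptprc at -0.11 ± 0.12 and Cd3g at -0.17 ± 0.20. For 7 neutrophil and mast cell markers the median was -0.09, with S100a9 at -0.89 ± 0.45, Mcpt4 at 0.24 ± 0.13 and Cpa3 at 0.18 ± 0.11. For 6 adipocyte markers it was -0.12, with Ucp1 at -0.62 ± 0.55, Adipoq at -0.53 ± 0.70 and Cidea at -0.17 ± 0.23. The values of Ucp1 and Adipoq rested on WT replicate 2, where they were 3.805 and 3.93. In any other animal they were at most 0.322 and 0.826. Without KO replicates 1 and 6 and WT replicate 2 the median of the adipocyte markers was -0.092. Cardiomyocyte markers had a median of -0.07, with Tnnt2 at 0.13 ± 0.10, Myl2 at -0.20 ± 0.17 and Actc1 at -0.31 ± 0.27. The medians of 5 liver, 5 lung and 5 atrial markers were 1.17, 0.69 and 0.37. Without KO replicate 6 they were 0.031, 0.0073 and 0.19, so the first and second rest on that array. The genes of smallest p in them were Apoa1 (1.17 ± 0.75), Alb (1.33 ± 0.91), Fgb (1.28 ± 0.94), Sftpd (0.92 ± 0.56), Scgb1a1 (0.89 ± 0.65), Sftpa1 (0.26 ± 0.24), and Bmp10 (0.40 ± 0.16), Myl7 (1.38 ± 1.18) and Nppa (-0.14 ± 0.19).

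The genes most like Ctsl over animals were found among 10663 named genes with a value on the 10 arrays that measured it. The measure was the root mean square difference of log2 ratios after each orientation was centred on its mean. The smallest values were 0.139 for Csnk1e, a casein kinase gene, 0.145 for the tubulin gene Tuba1c, 0.156 for Glrx5, a mitochondrial glutaredoxin gene, 0.163 for Eci1, an enzyme gene of fatty acid oxidation, and 0.164 for Atpif1, the ATP synthase inhibitor gene. A gene with no variation would be at 0.351. Of the other cathepsins with all values, Ctsb was the nearest at 0.255 (294th of the 10663 genes), Ctsa was at 0.341, and Ctsk was farthest at 0.532. The difference between genotypes stays in this measure, so the choice itself favours genes that share the direction of Ctsl. KO minus WT was -0.35 ± 0.11 (SE) for Csnk1e and -0.36 ± 0.16 for Tuba1c, and neither passed (limma adjusted p = 0.834 and 0.930).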

How the data were processed

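The deposited table held 1 signed log ratio per probe and array for 41174 probes, read as log2 of heart over reference RNA. How the authors corrected background and normalized is not given in the sources used here. Array medians lay between -0.029 and 0.068. Correlations of arrays with opposite dye orientation were at least 0.835, so the columns share a direction, and cardiomyocyte markers set it as heart over reference. Per the labels, RNA was labelled with an Agilent kit.

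Probes were named through the platform annotation (31700 with 1 symbol, 47 with several, 9427 with none). Those with at least 2 values per genotype and dye orientation (36826) were joined per gene by an additive fit of probe and array. This gave 25821 features. Limma 3.58.1 (R 4.3.3) fitted genotype and dye orientation on 12 arrays, two-sided, with Benjamini-Hochberg adjustment over all features and 0.05 as the threshold. The fit was tested on simulated data. Replicate numbers were not treated as pairs in the main fit. Correlations of same-numbered KO and WT deviations were -0.232 to 0.022, which cannot show whether the animals were paired. Members and lists were chosen with earlier results of these data known. The members, the 3 genes of smallest p of each other list and the 5 genes most like Ctsl were named by rule. Animals are biological replicates per the labels. The number of arrays limits precision. The median SE of a difference was 0.13. Python 3.11.15 and matplotlib 3.10.9 drew the plots.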

Additional observations from a re-analysis of the deposited data

Results flagged for a closer look

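Ctsk in WT replicate 1 lay at -0.205, far below the other 4 measured WT animals, of which the next was 0.592. Ctsa in KO replicate 2 lay at -0.228, above the other 5 KO animals, of which the next was -0.445. These were 2 of 22 gene and group combinations examined for a sample far from the rest, and chance gives about 1 in 20. Without WT replicate 1 the KO minus WT difference of Ctsk was -0.261, and without KO replicate 2 that of Ctsa was -0.004.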

How the results depend on the processing

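Over 26 alternative settings that gave it a value, Ctsl was lower in KO in 26, from -0.636 to -0.419. It did not pass the adjusted test in any of the 25 limma fits. The exact permutation, on the same estimate of -0.526, gave an unadjusted p = 0.0333. Several settings could not move that estimate, so the 26 are not separate checks. These were the fits with no dye term, plain means, single probes, no filter on empty cells or the ratio filter. Leaving out WT replicate 3 or KO replicate 2, which had no Ctsl value, could not move it either. Leaving out each array in turn gave -0.633 to -0.419 for Ctsl and -0.656 to -0.443 for Ctsl minus the other members. With the replicate block Ctsl was -0.583 (limma adjusted p = 0.969), and the block changed no member's call. Of 253 values of members over settings 0 passed and 19 changed sign, in Ctsa, Ctsk, Ctss and Ctsz.
Ctsk, -0.019 as reported, was 0.037 with array weights, 0.031 without the 2 emptiest arrays, 0.026 without KO replicates 1 and 6 and WT replicate 2 (the 3 arrays with the most transcripts of other tissues), 0.524 with heart RNA in Cy3 alone, and -0.261 to 0.076 with each array left out. Ctsa was -0.054 as a plain mean over probes, -0.070 in Cy3 alone and -0.0045 to 0.0505 with each array left out. Ctsz was -0.0069 without the 2 emptiest arrays, -0.156 in Cy3 alone and -0.027 to 0.089 with each array left out. Ctss was 0.045 without those 3 arrays. Features called between genotypes numbered 3 after quantile normalization, 2 with each probe on its own, 2 with only features on all 12 arrays, 6 with only ratios at least 0.5 from 0, 2 without the 3 arrays, 2 in Cy3 alone, 0 in Cy5 alone and 1 to 3 with each array left out. Of these, 1, 2, 1 and 1 were lower in KO after quantile normalization, the ratio filter, without the 3 arrays and in Cy3 alone, and 0 to 2 with each array left out. With only features on all 12 arrays 4 members were left, all 4 called against the reference and 1 of them above it, and Ctsl had no value. The cause of the other changes was not tested. List settings were added after seeing the data and gave 0 called genes. The number of arrays, dim probes and the single probe of Ctsl limit these values.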
